A study of Rattus norvegicus with 2 samples.

Results

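The genes described here are 9 genes of epithelial tight and adherens junctions, namely Cldn1, Cldn12, Ocln, F11r, Tjp1, Cgn, Pard3, Cdh1 and Ctnnb1. They were taken as the non-control array probes that carry 1 of these names in the scanner files, which gave 14 of 45598 probes and all 9 genes among the 13062 measured on both arrays. The tested sample was IEC6 cells given 100 µM sodium trisulfide (Na2S3), an inorganic polysulfide, for 60 min, and its control was IEC6 cells given water for 60 min. IEC6 is a non-transformed rat line that the labels give as cultured small intestine epithelium, and the treatment medium held low serum in place of the growth serum. The dose is that of the sample label and the design text. The treatment protocol gives 100 mM, and this conflict is unresolved here.

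Tight junctions seal the space between neighbouring epithelial cells near their apical border. Their strands are built from claudins, with occludin and the adhesion molecule JAM-A alongside, and cytoplasmic plaque proteins such as ZO-1 and cingulin tie the strands to actin and myosin. Adherens junctions lie just below and hold cells together through E-cadherin, whose tail binds β-catenin, which is also the nuclear partner of TCF and LEF factors in Wnt signalling. The PAR3 complex sets where both junctions form along the apical-basal axis.

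Each group is 1 single-colour array, so there is no replicate spread, no p-value is given, and "higher" and "lower" describe these 2 arrays. Levels are given as the processed signal of a probe in intensity units, or as its multiple of the array's own 75th percentile over probes, which was 478 units on the Na2S3 array and 413 units on the water array. Dividing by that percentile removed a shift of 0.21 on the log2 scale, and every log2 ratio below is the scaled Na2S3 signal over the scaled water signal unless another setting is named. The stated error of a ratio is the SD of repeat spots of similar brightness elsewhere on the arrays, because each of the 14 probes was spotted 1 time. It covers spot noise and not variation between cultures. Probes differ in how brightly they bind, so signals are compared between the arrays for 1 probe and not between genes.

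All 9 genes were expressed above background on both arrays and none differed by 1.5-fold. The count past 1.5-fold in either direction was 0 of 9, against 6.38% of the 13062 measured genes, and the count past 2-fold was 0 of 9, against 1.56%. The gene ratios ran from -0.13 for Cgn to 0.44 for Cldn1, with a median of 0.13, while the median over all measured genes was -0.04 and their SD 0.34. Of the 9 genes, 5 had a ratio above 0, against 43.4% of all measured genes. With 9 genes this difference of shares is not read as a result about them.

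**Figure D1:**
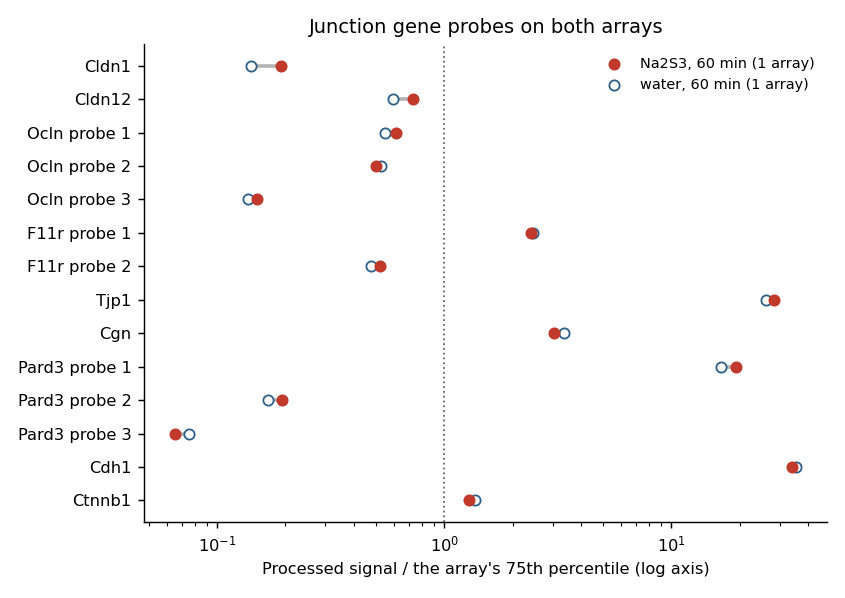
Processed signal of each of the 14 junction gene probes as a multiple of the array's 75th percentile (horizontal log axis, dotted line at 1), on the Na2S3 array (filled) and the water array (open), 1 array each. The 2 symbols of a probe lie close together throughout, while Tjp1, Cdh1 and Pard3 probe 1 lie far above the 75th percentile and Cldn1 lies below it on both arrays.

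The 2 claudin ratios were the highest of the 9 genes as reported, with the background subtraction of the scanner files. With the normexp correction in its place, Cldn1 stood below Pard3 and Tjp1. Cldn1 encodes claudin-1, a barrier-forming strand protein, and its probe lay at chr11:76488733-76488792 of rn4. It gave 91.2 units on the Na2S3 array and 58.4 units on the water array, or 0.191 times the 75th percentile on the Na2S3 array and 0.141 times on the water array. The Na2S3 array was the higher, by 1.35-fold (log2 ratio 0.44, spot error 0.22). That ratio was above those of 94.8% of measured genes. The probe was dim, however, at 176 raw units over a local background of 62 on the Na2S3 array and 141 raw units over 66 on the water array. With the normexp background correction its log2 ratio was 0.15, beside 0.22 for Pard3 and 0.17 for Tjp1. That correction was run with an offset of 50 units added to every signal, which by itself shrinks the ratios of dim probes. The same holds for every normexp value of a dim probe below.

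Cldn12 encodes claudin-12, a claudin linked in mice to calcium movement between epithelial cells. Its probe gave 349 units on the Na2S3 array and 247 units on the water array, or 0.731 times the 75th percentile on the Na2S3 array and 0.596 times on the water array. The Na2S3 array was again the higher, by 1.23-fold (log2 ratio 0.29, spot error 0.11), above 89.9% of measured genes. Its ratio ran from 0.25 with normexp to 0.50 with no scaling, so the sign was the same under all 11 settings, as it was for Cldn1. Both claudins were read by 1 probe each, and no second probe on the arrays bears on either value.

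Occludin, the tetraspan strand protein that binds ZO-1, was read by 3 Ocln probes at different places on the mRNA. The last 30 bases of each are shown with the Cldn1 probe. They show that the Ocln probes read different sequence and which probes end near an AATAAA hexamer. That hexamer, the usual polyadenylation signal, is marked here in capitals.
Cldn1 probe: taagtactactctttttcAATAAAttgttg
Ocln probe 1: caattatgacttgaattgtatttcacagga
Ocln probe 2: ttgtatgtgctttatatttttgaAATAAAg
Ocln probe 3: aatggcttttgataattgactgggctgaac
The letters AATAAA, searched on the probe's own strand over its full 60 bases, were in 2 of the 14 junction probes, those of Cldn1 and Ocln probe 2, and in 9.04% of all non-control probes. Ocln probe 3 starts at base 1877 of the transcript, probe 1 at base 2694 and probe 2 at base 4053, and in rn4 they lie on the minus strand of chromosome 2 at 31319306 to 31319365, 31318489 to 31318548 and 31317108 to 31317167.

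The brightest, Ocln probe 1, gave 292 units on the Na2S3 array and 228 units on the water array, a log2 ratio of 0.15 (spot error 0.11). Probe 3 gave 71.7 units on the Na2S3 array and 56.7 units on the water array, a log2 ratio of 0.13 (spot error 0.22). Probe 2, at the 3′ end, gave 239 units on the Na2S3 array and 219 units on the water array, a log2 ratio of -0.08 (spot error 0.11). The 3 probes therefore did not share a sign. Across the arrays, the ratios of different probes of 1 gene had an SD of 0.24 (3181 genes). The values give no settled direction for Ocln.

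F11r encodes JAM-A, an immunoglobulin-family adhesion molecule of the tight junction. The brighter of its 2 probes gave 1155 units on the Na2S3 array and 1020 units on the water array, or 2.42 times the 75th percentile on the Na2S3 array and 2.47 times on the water array (log2 ratio -0.03, spot error 0.08). The dimmer probe gave 249 units on the Na2S3 array and 198 units on the water array (log2 ratio 0.13, spot error 0.11). The probes lay on either side of 0, the brighter within its spot error of 0 and the dimmer just beyond it. They give no settled direction for F11r. The dimmer probe is shown whole because its 60 bases span 1100 bases of the rn4 genome, chr13:87391336-87392435 on the plus strand, so it reads spliced mRNA.
F11r probe 2: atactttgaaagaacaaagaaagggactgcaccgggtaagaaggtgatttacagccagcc

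The plaque genes were higher for one and lower for the other. Tjp1 encodes ZO-1, the scaffold that links claudins and occludin to actin, and its probe gave 13559 units on the Na2S3 array and 10754 units on the water array, or 28.4 times the 75th percentile on the Na2S3 array and 26.0 times on the water array. Its log2 ratio was 0.13 with a spot error of 0.06. At this brightness spot noise is small, but the choice of scaling is not: the ratio was 0.20 after quantile normalization, 0.23 after loess and 0.20 in the authors' deposited table. Cgn encodes cingulin, a plaque protein that binds ZO-1 and myosin. Its probe gave 1460 units on the Na2S3 array and 1388 units on the water array, or 3.06 times the 75th percentile on the Na2S3 array and 3.36 times on the water array, the lowest log2 ratio of the 9 genes at -0.13 (spot error 0.08). It was below 0 in 10 of 11 settings, the exception being 0.07 with no scaling.

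Pard3 encodes PAR3, the polarity scaffold that recruits PAR6 and atypical protein kinase C to the junction. Its 3 probes belong to different transcript records and sit far apart on chromosome 19, so the end of each is printed to show that they read separate sequence.
Pard3 probe 1: taaagtgcctgagaatctcgatataaaaaa
Pard3 probe 2: ggtgtctgggctgtggctcagtctagagtg
Pard3 probe 3: tactcatgtattaggaagcagctcataggg
In rn4, probe 1 lies at chr19:57603024-57603083 and reads the curated Pard3 record, whereas probe 2 at chr19:57413729-57413788 and probe 3 at chr19:57379041-57379100 carry the accessions of predicted variants.

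Pard3 probe 1 gave 9161 units on the Na2S3 array and 6871 units on the water array, or 19.2 times the 75th percentile on the Na2S3 array and 16.6 times on the water array (log2 ratio 0.21, spot error 0.08). Probe 2 gave 92.2 units on the Na2S3 array and 69.1 units on the water array (log2 ratio 0.21, spot error 0.22). Probe 3 gave 31.2 units on both arrays (log2 ratio -0.21, spot error 0.40). Probes 1 and 2 thus had like ratios in this setting, but probe 2 lay within 1 spot error of 0 and was 0.05 with normexp, where probe 1 was 0.22. The dimmest probe, with the largest error of the 14, had the opposite sign. Pard3 probe 1 kept its sign in all 11 settings, from 0.21 to 0.41, and its ratio was above those of 84.1% of measured genes.

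The adherens junction genes had ratios just below 0. Cdh1 encodes E-cadherin, and its probe at chr19:36511853-36511912 of rn4 gave 16264 units on the Na2S3 array and 14703 units on the water array, or 34.1 times the 75th percentile on the Na2S3 array and 35.6 times on the water array. The log2 ratio was -0.06 with a spot error of 0.06. It was 0.05 after quantile normalization, after loess and in the authors' deposited table, so E-cadherin had no settled direction. A difference of the size of its spot error was all that separated the arrays.

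Ctnnb1 encodes β-catenin. The probe that carries its name gave 615 units on the Na2S3 array and 565 units on the water array, or 1.29 times the 75th percentile on the Na2S3 array and 1.37 times on the water array (log2 ratio -0.09, spot error 0.08). Another 2 probes carry an Ensembl transcript name in the files but are described there as Ctnnb1, and they lie further 3′, at transcript bases 3231 and 3366. They gave log2 ratios of -0.26 (3171 units on the Na2S3 array, 3288 units on the water array, spot error 0.09) and -0.16 (25467 units on the Na2S3 array, 24633 units on the water array, spot error 0.06). All 3 β-catenin probes were thus below 0 after the 75th percentile scaling. After quantile normalization the last of them stood at -0.04. With no scaling the probe that carries the name stood at 0.12, and the others at -0.05 and 0.05.

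**Figure D2:**
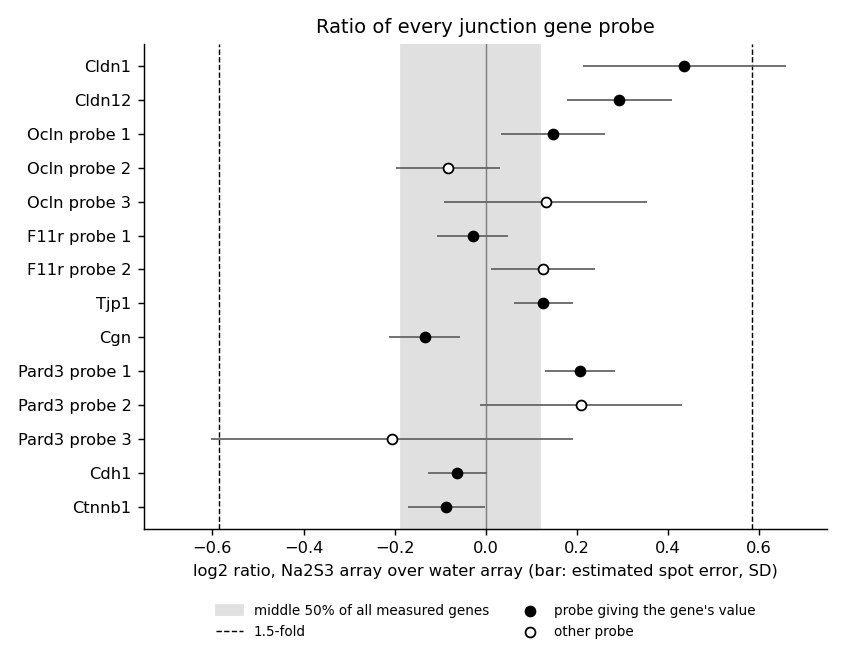
Log2 ratio of the Na2S3 array over the water array for each of the 14 junction gene probes, with the estimated spot error (SD) as bars, the middle 50% of all measured genes shaded (-0.19 to 0.12) and 1.5-fold as dashed lines. Filled points give the gene's value, and no point lies past 1.5-fold, with Cldn1 at 0.44 the furthest from 0.

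Among the 14 probes, 8 ratios were above 0 and 6 below, and 6 lay within 1 spot error of 0. The 2 of the 14 that lay more than 2 spot errors away were Cldn12 and Pard3 probe 1, both above 0. The other 2 probes described as Ctnnb1, which are not among the 14, lay below 0 by more than 2 spot errors, at -0.26 and -0.16. Without any scaling all 14 probes were brighter on the Na2S3 array, as were 77.4% of all measured genes, and the median of all genes then moved from -0.04 to 0.17. Relative to the median of all genes, the median of the 9 genes was higher by 0.16, and by 0.14 with normexp, 0.15 after loess and 0.19 with no filter on dim probes. Scaling that shifts every gene alike cannot change this difference.

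**Figure D3:**
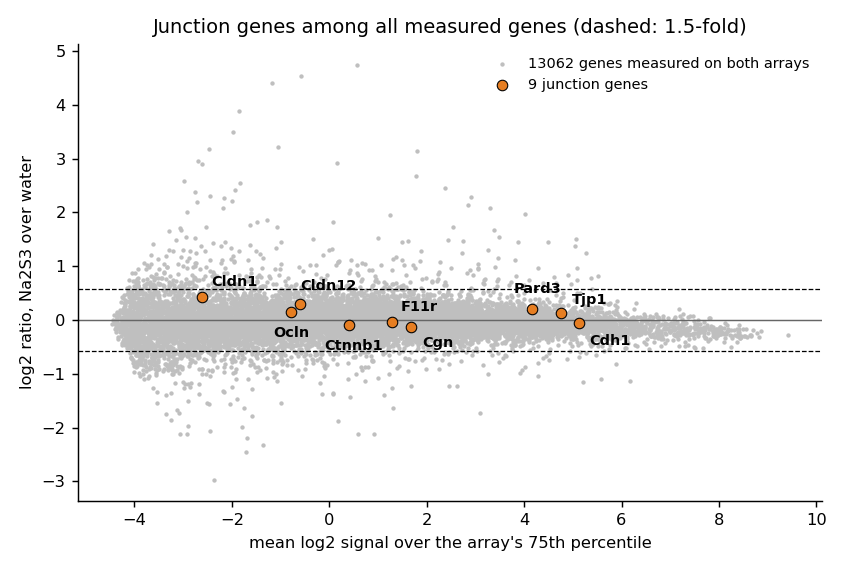
Log2 ratio of the Na2S3 array over the water array (vertical) against mean log2 signal relative to the 75th percentile (horizontal) for 13062 genes (grey) and the 9 junction genes (orange). The junction genes spread over the range of signal and all lie between the dashed 1.5-fold lines.

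The markers bear on what these cells express. Of 11 epithelial markers, 6 were above background on both arrays, among them Krt8, a simple-epithelium keratin gene (18283 units on the Na2S3 array, 15892 units on the water array), and Cdh1. Epcam, Vil1, Cdx2, Cldn4 and Cldn7 were not well above background on either array. Of 11 mesenchymal markers, 9 were above background, among them the collagen gene Col3a1 (108680 units on the Na2S3 array, 91981 units on the water array) and Vim, the vimentin gene (45377 units on the Na2S3 array, 38714 units on the water array), while Cdh2, the N-cadherin gene, was not. None of these markers differed by 1.5-fold at its brightest probe. The mesenchymal marker S100a4, named here after its values were seen, had -0.27 at that probe and -0.84, past 1.5-fold, at its other. The median log2 ratio was -0.03 for the epithelial markers, or 0.05 after quantile normalization, so it had no settled sign. For the mesenchymal markers it was -0.24, but -0.04 after quantile normalization and -0.05 after loess. Their part in the junction ratios was not tested. Immune and endothelial markers had 3 of 5 genes above background each, with log2 ratios from -0.35 to 0.07.

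The rest of the junction and its regulators, 105 further genes in 11 lists that overlap in part, had a share past 1.5-fold close to that of the whole array. There were 6 higher genes and 1 lower gene (Pard6g), 6.67% in all beside the 6.38% of all measured genes, which split into 387 higher and 446 lower. Past 2-fold there were 4 higher genes (Pvr, Snai2, Grhl1 and Myc) and 0 lower, 3.81% beside 1.56%. The lists were drawn up with earlier results of these arrays known.

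Most other claudin genes gave no usable signal. Of 23 with a probe, 18 were not well above background on either array, Cldn2, Cldn4 and Cldn7 among them. The 4 measured on both arrays had a median log2 ratio of -0.07 and 0 past 1.5-fold. Cldn15, which encodes a cation-pore claudin of the small intestine, gave 43638 units on the Na2S3 array and 35895 units on the water array (log2 ratio 0.07), and Cldn3 had 0.05, Cldn19 -0.19 and Cldn18 -0.46. Cldn11 passed background with Na2S3 and not with water, a difference of at least 1.39-fold. This bound and the others below for genes above background on 1 array compare signals alone. They make no allowance for spot error, which was 0.40 in log2 ratio for the dimmest repeat spots.

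Over 14 other tight junction genes the median log2 ratio was 0.07, with 0 past 1.5-fold at the brightest probe. Magi3, named here after its values were seen, had 0.06 at that probe and 0.78, past 1.5-fold, at its other. Arhgef2, which encodes GEF-H1, a RhoA activator held at the junction, had the highest brightest-probe value at 0.50, with 0.29 at its other probe. Lsr, the tricellular junction gene, had 0.23, Jam2 0.27 (-0.04 with normexp) and Ybx3 -0.24. The ZO-1 relative Tjp3, named here after its value was seen, had 0.08, beside 0.13 for Tjp1. Marveld2, the tricellulin gene, was not well above background, and Bves passed it with Na2S3 and not with water, at least 1.34-fold higher.

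Polarity genes that work with Pard3 had a median of 0.04 over 14 genes. Pard6b, a PAR6 gene, had 0.38 with 3837 units on the Na2S3 array and 2562 units on the water array. Pard6g, another PAR6 gene, was 1 of the dimmest at 27.6 units on the Na2S3 array and 41.8 units on the water array, and its log2 ratio of -0.81 (spot error 0.40) was -0.32 with normexp. Lin7c had 0.34 and Pard3b, the PAR3 paralogue gene, -0.31, and Crb3, the apical Crumbs gene, passed background with Na2S3 and not with water, at least 1.42-fold higher.

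Within the adherens junction, the genes with the largest ratios were all of the nectin family. Pvr encodes the poliovirus receptor, a nectin-like adhesion molecule, and gave 4891 units on the Na2S3 array and 1784 units on the water array, 2.37-fold higher (log2 ratio 1.25, spot error 0.09). Nectin4 gave 1495 units on the Na2S3 array and 809 units on the water array, 1.60-fold higher (log2 ratio 0.68, spot error 0.08). These were the list's 2 genes past 1.5-fold, and both kept that under normexp, at 1.23 and 0.64. Nectin3 had 0.39 at its brightest probe and -0.46 at its lowest, and Nectin2 had 0.37 at its brightest probe and 0.12 at its other. With normexp, where the brightest probe was chosen afresh, the Nectin2 value was 0.09, so it need not come from the same probe. The list median was 0.05 over 16 genes. Of the other catenin genes, named here after their values were seen, Ctnna1 (α-catenin) had 0.0037, Ctnnd1 (p120) 0.03, Jup (plakoglobin) 0.10 and Ctnna2, a second α-catenin gene, -0.31 (spot error 0.11, and -0.25 with normexp). Plekha7 passed background with Na2S3 and not with water, at least 1.19-fold higher with no allowance for spot error.

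Transcription factors that act on the E-cadherin gene included 1 of 8 measured repressors past 2-fold. In the activator list it was 1 of 4 measured genes, against 1.56% of all measured genes. Nothing is read from counts of so few genes. Snai2, the Slug gene, gave 220 units on the Na2S3 array and 87.9 units on the water array, 2.17-fold higher (log2 ratio 1.12, and 0.63 with normexp). Snai1, the Snail gene, had -0.26, Zeb1 0.23 and Snai3 0.53 (0.01 with normexp). Grhl1, which encodes a grainyhead-like factor of epithelia, gave 398 units on the Na2S3 array and 126 units on the water array at its 1 probe of 2 above background, 2.74-fold higher (log2 ratio 1.46), and still passed 2-fold with normexp. The other measured genes of the activator list were Cdx1 at -0.23, Elf3 at -0.17 and Esrp2 at -0.12. Esrp2 encodes a splicing regulator and not a transcription factor. Ovol1 passed background with water and not with Na2S3, at least 1.26-fold lower with Na2S3. Cdh1 itself stood at -0.06 at this single time.

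Of 10 measured genes whose products bind or degrade β-catenin, 0 passed 1.5-fold and the median log2 ratio was 0.19. Bcl9, a β-catenin coactivator gene, had 0.33, Gsk3b 0.32 at its brightest probe (0.02 to 0.42 over 5 probes), Tcf7l1 0.29 and Btrc, a ubiquitin ligase subunit gene, 0.24. Of 7 measured Wnt target genes, Myc alone passed 1.5-fold, with 5803 units on the Na2S3 array and 915 units on the water array (log2 ratio 2.46). Axin2, a widely used readout of Wnt signalling, had 0.00017, Ccnd1 -0.20, Ascl2 -0.11 and Znrf3 -0.26. Rnf43 passed background with water and not with Na2S3, at least 1.17-fold lower with Na2S3.

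Genes of the actin and myosin belt had a median of -0.04 over 12 genes, with 0 past 1.5-fold. Shroom3 had -0.28, Rac1 -0.16, Myh9, a non-muscle myosin gene, -0.15 (0.18 at its other probe) and Arhgef11 0.15. The list median was 0.04 after quantile normalization and 0.05 after loess, so it had no settled sign. Myl9, a regulatory light chain gene, passed background with Na2S3 and not with water, at least 1.18-fold higher.

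**Figure D4:**
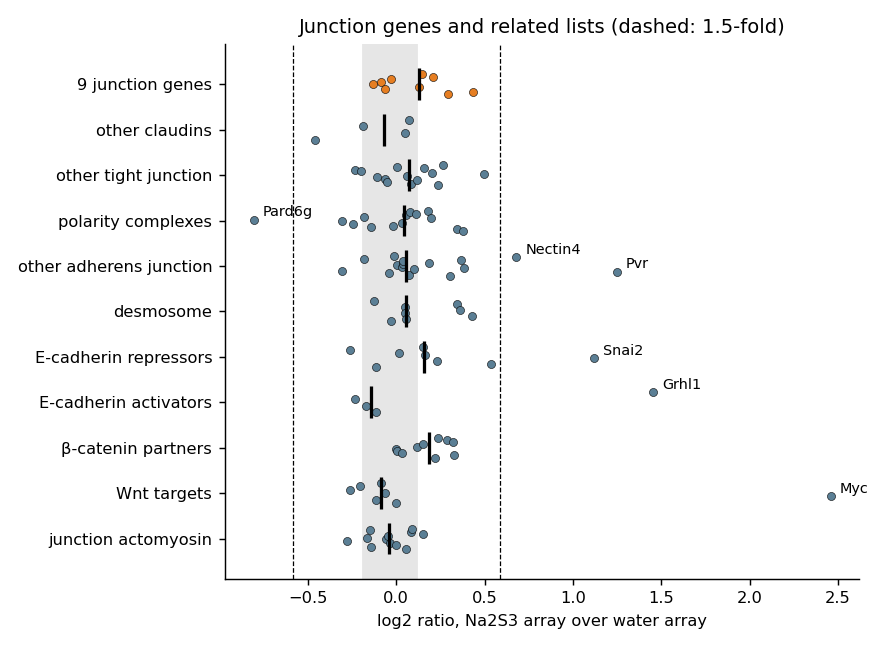
Log2 ratios of the Na2S3 array over the water array for the 9 junction genes (orange) and the measured genes of 10 related lists (blue), with the list median as a bar, the middle 50% of all measured genes shaded and 1.5-fold dashed. All 9 junction genes lie inside 1.5-fold, and the named genes outside it are Pard6g, Nectin4, Pvr, Snai2, Grhl1 and Myc.

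**Figure D5:**
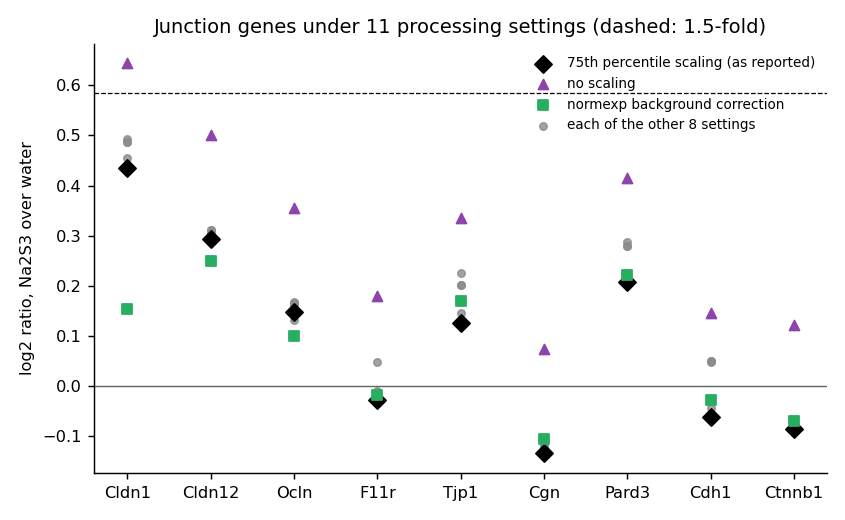
Log2 ratio of the Na2S3 array over the water array for the 9 junction genes (horizontal) under 11 processing settings, with 1.5-fold dashed. Cldn1, Cldn12, Ocln, Tjp1 and Pard3 lie above 0 under each setting, and Cldn1 passes 1.5-fold with no scaling alone (0.64). Cdh1, F11r, Cgn and Ctnnb1 lie on both sides of 0, Cgn and Ctnnb1 above it with no scaling alone.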

How the data were processed

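RNA of 1 IEC6 sample per group was copied into Cy3-labelled cRNA, per the labels' protocols, and read on an Agilent array of its own. The scanner files hold spot intensity values from Agilent Feature Extraction 10.7.1.1, per the file headers (the submitters' processing notes name 9.5.1.1), background-subtracted and detrended within the array. A value table that the authors deposited has linear intensity values too, with an unstated normalization. Its columns share a median of 19.3 and follow their own arrays (r = 0.99997 over probes, log2).

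Spots flagged as outliers (390 on the Na2S3 array, 448 on the water array) were left out, the log2 processed signal was averaged over spots of a probe, and the 75th percentile over non-control probes was subtracted. A probe counted as above background when more than 50% of its spots carried that flag. The brightest probe above background on both arrays stands for its gene. A gene above background on 1 array has a bound against the higher of the dim probe's signal and that array's lowest signal above background. Such a bound makes no allowance for spot error. Of the 14 probes, 11 matched the RefSeq GRCr8 table by accession, and 3 kept the file's name. Probe sequences and rn4 coordinates are the files'. The normexp background correction, with an offset of 50 units, and loess used limma 3.58.1. The procedure was tested on simulated data. Since each group is 1 array, no test was run. The text names all 9 genes, and of each related list the 4 largest ratios and genes above background on 1 array, apart from items not reported here. The members and lists were chosen with earlier results of these data known.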

Additional observations from a re-analysis of the deposited data

How the results depend on the processing

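The 9 ratios were recomputed under 10 alternatives: normexp background correction, no scaling, the median of probes above background, quantile normalization, loess, the deposited table, the median over probes, no filter on dim probes, outlier spots kept, and the 75th percentile over spots (chosen after seeing the data). Of 90 alternative values, 74 moved by less than the spot error. Many of these could not move or hardly could, so the count does not measure stability. Leaving out the filter on dim probes changed none of the 9 values, and the median over probes cannot change the 6 genes with 1 probe. Keeping outlier spots and scaling to the median of probes above background shift every gene alike, by far less than the spot error. With no scaling the median of the 9 genes was 0.33 in place of 0.13, and 1 gene, Cldn1, passed 1.5-fold in place of 0. In the other 9 alternatives that median ran from 0.10 to 0.17 with 0 genes past 1.5-fold, and 0 passed 2-fold in any. No paired analysis was possible because each group has 1 array. Cldn1, Ocln probe 3 and the dimmer Pard3 probes are limited by low signal over background. Whole-array counts past 2-fold were 204 as reported, 92 with normexp, whose offset shrinks dim ratios, and 2607 with no filter on dim probes.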

Other observations

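Desmosome genes, which anchor keratin filaments at the cell border, had 8 measured members with a median log2 ratio of 0.05. Past 1.5-fold there were 0 of 8, against 6.38% of all measured genes, and 6 of 8 were above 0, against 43.4%, and nothing is read from these counts for so few genes. Pkp3, a plakophilin gene, had 0.43 and Pkp1 0.34, but these were 0.06 and 0.0012 with normexp, while Ppl, the periplakin gene, had 0.36 and Perp -0.13. All 3 desmocollin genes and all 4 desmoglein genes listed were not well above background on either array.

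Gap junction genes, which form channels between cells, had 9 measured members with a median log2 ratio of -0.08. The median was -0.0054 after quantile normalization and 0.0064 after loess, so it had no settled sign. Past 1.5-fold there was 1 higher gene of 9, not named here, against 6.38% of all measured genes, and nothing is read from this count. Among the others, Gja4 had -0.45, Panx1 0.34 and Gjc1 -0.25. Gja1, the connexin 43 gene, named here after its value was seen, gave 10526 units on the Na2S3 array and 9664 units on the water array (log2 ratio -0.08).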
